A study of Mus musculus with 8 samples.

Results

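The genes described here are 10 genes grouped with Plet1 as genes of the upper hair follicle: Plet1, Cst6, Atp6v1c2, Nebl, Calhm5, Aadac, Slco2b1, Vsnl1, Mab21l4 and Abi3bp. They are known upper follicle markers together with genes chosen by their high signal on the Mts24 positive arrays. The Mts24 values of all of them are therefore given as a description, with no test. All 10 are on the array, out of 19938 genes with a probe set of a single gene symbol, and 10 of 10 passed the filter on dim genes, as did 10720 genes in all. For a gene that is low in some arrays, passing can rest on the arrays where it is high.

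The study profiled back-skin keratinocytes of CD1 mice aged 8 weeks on 8 arrays, 1 for each of 8 groups. Mice were either wild type or carried the K14Snail transgene, named for the keratin 14 promoter, which is active in basal and follicular keratinocytes, and for Snail, a repressor of transcription. From either genotype, trypsinised cells were selected with magnets through an antibody to CD34 or to Mts24, and the positive and the negative cells were both kept. The groups are thus 4 fractions (positive or negative for CD34, and positive or negative for Mts24) in each of 2 genotypes. RNA for a CD34 fraction came from 11 pooled mice and RNA for an Mts24 fraction from 9 pooled mice, males and females mixed. The negative fraction of a sort is the control of its positive fraction. Values are log2 signals from RMA, a method that normalizes arrays and summarizes the probes of a gene, and the number of arrays limits the precision. In bulk samples of this kind, fewer cells of a type and less RNA per cell cannot be told apart.

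The hair follicle is an epithelial tube with the bulge, a stem cell niche marked by CD34, in its lower permanent part. Above the bulge lie the isthmus, the junctional zone where the sebaceous gland opens, and the infundibulum, the funnel that reaches the skin surface. The antibody Mts24 binds Plet1, a glycoprotein of the cell surface found on cells of this upper part, which help to renew the follicle opening and the sebaceous gland. The proteins encoded by the 10 genes include a protease inhibitor, a proton pump subunit, an esterase and a transporter.

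The labels held for the genes that define the groups. Snai1, the gene of Snail, lay between 7.86 and 8.16 in the 4 wild type arrays and between 10.84 and 11.04 in the 4 K14Snail arrays. Cd34 stood at 13.57 and 13.29 in the CD34 positive arrays (wild type first, then K14Snail) and at 6.12 and 6.27 in the CD34 negative arrays. It was also present in Mts24 negative cells (10.03 and 10.51) and in Mts24 positive cells (12.12 and 11.56), so Cd34 RNA was found in both Mts24 fractions. The keratin Krt14 was at least 13.28 on all 8 arrays. Endothelial markers were dim, with 0 of 8 genes past the filter. T cell markers, averaged over 8 genes, stood at 9.58 and 9.34 in Mts24 negative cells against 7.23 and 7.06 in Mts24 positive cells, and at 9.19 and 8.97 against 7.37 and 7.61 in the CD34 negative and positive cells. The averaged level of 13 myeloid and Langerhans cell genes was 8.98 and 8.92 in Mts24 negative and 7.29 and 8.41 in Mts24 positive cells. In the CD34 sort it was 8.85 and 7.30 (negative, then positive) in wild type but 8.48 and 8.47 in K14Snail. The T cell average was thus lower in the positive cells of both sorts, and the myeloid average was lower except in the K14Snail CD34 pair. Single myeloid genes varied. Of 11 tested, 3 were called lower and 0 higher in Mts24 positive cells, where 13.5% of all tested genes were lower. Lyz2 went from 6.57 to 8.91 in the K14Snail Mts24 pair. The part of these cell types in the differences given here was not tested.

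Plet1 itself was brightest in Mts24 positive cells, at 12.88 in wild type and 12.64 in K14Snail. CD34 positive cells held 11.82 and 11.74, CD34 negative cells 11.15 and 11.22, and Mts24 negative cells 9.91 and 9.16. The 4 fractions did not overlap between genotypes, so the order from Mts24 positive through CD34 positive and CD34 negative to Mts24 negative cells was the same in wild type and K14Snail. Positive exceeded negative cells by 2.97 in wild type, which is 7.82-fold, and by 3.48 in K14Snail, which is 11.1-fold.

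Promoter sequence was taken from RefSeq (build GRCm38.p6), where 8 of the 10 genes matched by symbol with 15 start sites; Cst6 and Abi3bp were not looked at. Shown are the 250 bases before the start of Plet1 and of the 3 other members with a single listed start, because a single start leaves no choice of window. The windows are chr9:50494275-50494524 (plus strand) for Plet1, chr10:34096520-34096769 (minus) for Calhm5, chr3:60031538-60031787 (plus) for Aadac and chr12:17324731-17324980 (minus) for Atp6v1c2. They read 5′ to 3′ on the gene's strand, and capitals mark matches on either strand to 4 motifs, none of which overlap here. The TATA box was searched as TATAAA. The E-box that Snail binds was searched as CAGGTG. The site of GATA factors was searched as AGATAA. The site of AP-1 factors was searched as TGANTCA, where N is any base.
Plet1: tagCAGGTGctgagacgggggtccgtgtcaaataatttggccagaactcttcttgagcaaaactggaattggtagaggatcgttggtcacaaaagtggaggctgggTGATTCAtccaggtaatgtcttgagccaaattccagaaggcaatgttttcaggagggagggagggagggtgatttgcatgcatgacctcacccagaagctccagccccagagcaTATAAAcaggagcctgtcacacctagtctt
Calhm5: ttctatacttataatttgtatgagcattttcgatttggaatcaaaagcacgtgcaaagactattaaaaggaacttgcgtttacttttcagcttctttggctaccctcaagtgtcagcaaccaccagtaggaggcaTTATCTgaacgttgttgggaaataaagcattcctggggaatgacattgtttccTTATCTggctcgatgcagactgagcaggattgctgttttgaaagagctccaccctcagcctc
Aadac: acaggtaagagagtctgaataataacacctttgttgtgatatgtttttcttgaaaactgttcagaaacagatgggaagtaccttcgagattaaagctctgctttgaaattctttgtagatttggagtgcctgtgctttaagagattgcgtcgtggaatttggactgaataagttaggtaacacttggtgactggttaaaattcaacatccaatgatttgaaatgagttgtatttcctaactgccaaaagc
Atp6v1c2: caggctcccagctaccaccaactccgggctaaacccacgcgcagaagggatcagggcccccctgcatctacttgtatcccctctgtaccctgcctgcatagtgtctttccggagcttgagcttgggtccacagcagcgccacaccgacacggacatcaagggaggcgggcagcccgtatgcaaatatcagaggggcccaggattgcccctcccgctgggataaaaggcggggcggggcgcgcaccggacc

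The Plet1 window holds a TATA box from 30 to 25 bases before the start, an AP-1 match from 144 to 138 bases and an E-box from 247 to 242 bases before it. The Calhm5 window has 2 GATA matches, and the windows of Aadac and Atp6v1c2 have none of these letters. Among all 32851 windows of this length the TATA letters occur in 12.4%, the E-box letters in 17.2%, the GATA letters in 9.99% and the AP-1 letters in 6.75%. Of the 15 member windows 1 has the TATA letters (Plet1), 2 the E-box (Plet1 and Nebl), 3 the GATA letters (Nebl at 2 starts and Calhm5) and 2 the AP-1 letters (Plet1 and Mab21l4). These matches describe the letters only.

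**Figure D1:**
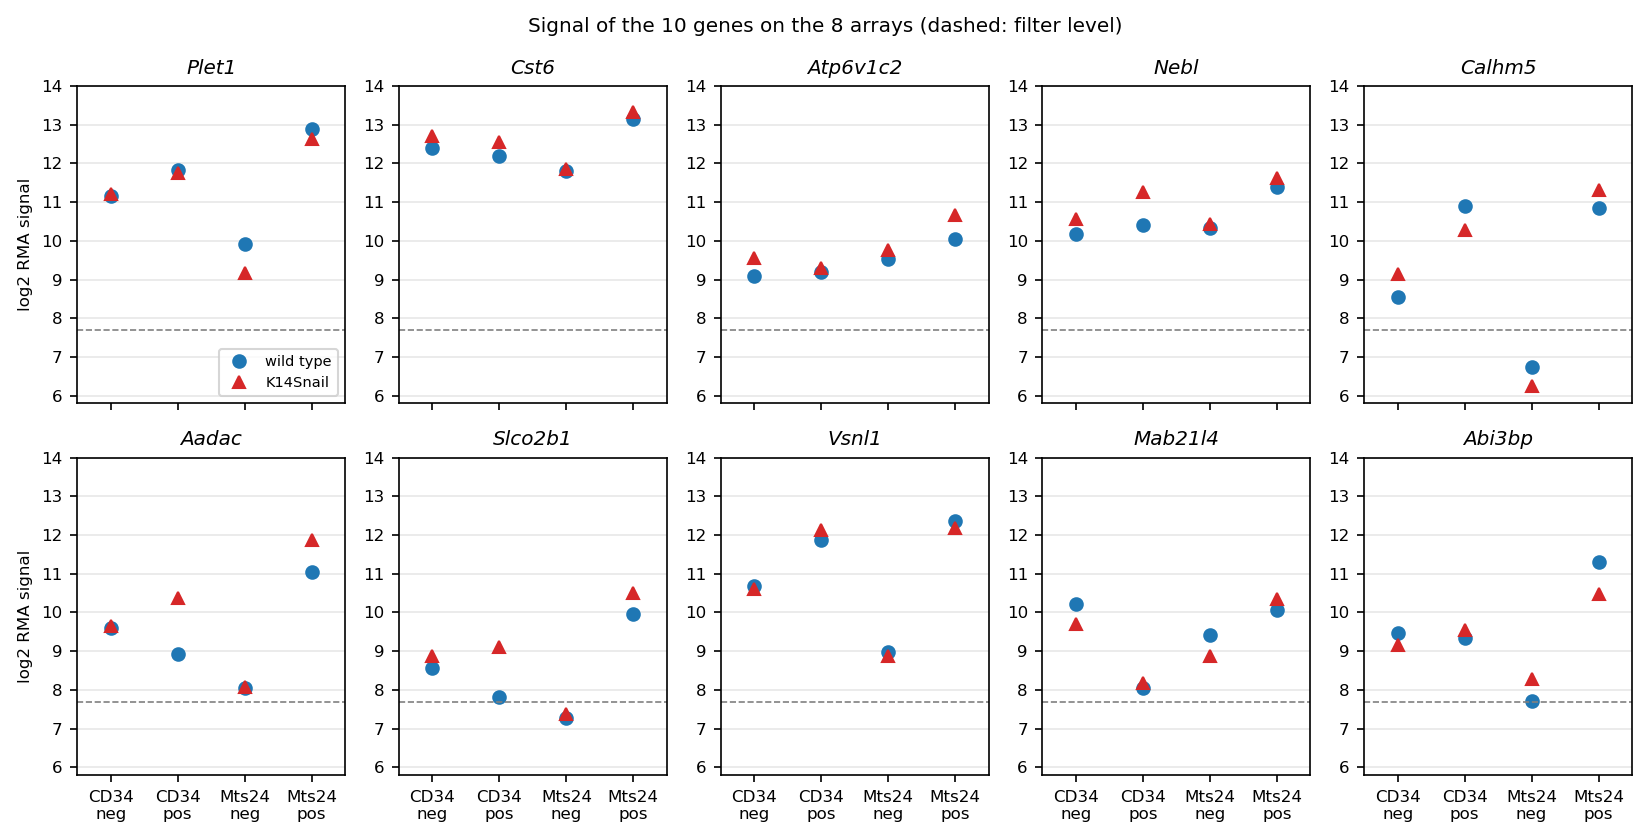
Signal of each of the 10 genes (log2 RMA signal, vertical axis) in the 4 sorted fractions, with wild type arrays as blue circles and K14Snail arrays as red triangles, 1 array per point. The dashed line is the filter level of 7.70. Plet1 falls from 12.88 and 12.64 in Mts24 positive to 9.91 and 9.16 in Mts24 negative cells, and Calhm5 drops under the dashed line in Mts24 negative cells.

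All 10 genes were higher in Mts24 positive than in Mts24 negative cells in both genotypes, as the choice of members fixes. The median difference over the genotypes was 2.90 on the log2 scale, from 0.72 (Atp6v1c2) to 4.60 (Calhm5), against a median of 0.02 over all tested genes. Of all tested genes 26.3% passed an adjusted p of 0.05 in this sort with limma, a linear model across genes (12.8% higher and 13.5% lower); nothing is read from the members' count. In 8 of the 10, both Mts24 positive arrays lay above the other 6 arrays, which 4.37% of tested genes did. The exceptions were Calhm5 and Mab21l4. As these are the arrays the members were chosen on, nothing is read from this count either.

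Among the genes with a role in cell-surface, transport or signalling, Calhm5 had the largest difference. It encodes a member of the calcium homeostasis modulator family of large-pore channels. Its signal was 10.86 and 11.30 in Mts24 positive cells, 10.90 and 10.29 in CD34 positive cells, 8.55 and 9.15 in CD34 negative cells and 6.73 and 6.24 in Mts24 negative cells. The positive fractions of both sorts overlapped and the 2 negative fractions were apart. The Mts24 difference was 4.14 in wild type and 5.06 in K14Snail, and because both Mts24 negative arrays lie under 7.70 its size depends on the background.

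Vsnl1 encodes visinin-like 1, a neuronal calcium sensor. It stood at 12.36 and 12.18 in Mts24 positive, 11.86 and 12.12 in CD34 positive, 10.69 and 10.60 in CD34 negative and 8.99 and 8.87 in Mts24 negative cells. The 4 fractions kept the order of Plet1 without overlap, though the lowest Mts24 positive array was only just above the highest CD34 positive one. Mts24 differences were 3.37 in wild type and 3.31 in K14Snail.

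Slco2b1, an uptake transporter of organic anions such as steroid sulphates, reached 9.97 and 10.50 in Mts24 positive cells. It was at 7.81 and 9.10 in CD34 positive, 8.56 and 8.88 in CD34 negative and 7.28 and 7.38 in Mts24 negative cells, the last under the filter level. CD34 positive and CD34 negative arrays overlapped. The Mts24 difference was 2.69 in wild type and 3.12 in K14Snail, with a size that depends on the background.

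Among the enzymes and the enzyme inhibitor, Aadac, an esterase of the endoplasmic reticulum that hydrolyses acetylated drugs and lipids, stood at 11.04 and 11.88 in Mts24 positive cells. It was at 8.93 and 10.37 in CD34 positive, 9.59 and 9.66 in CD34 negative and 8.06 and 8.07 in Mts24 negative cells. CD34 positive cells spanned the CD34 negative arrays, and the other fractions were apart. Its Mts24 difference was 2.98 in wild type and 3.81 in K14Snail.

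Cst6 encodes cystatin M, an inhibitor of legumain and cathepsin L that is needed for normal cornification. Its signal was 13.15 and 13.34 in Mts24 positive, 12.19 and 12.55 in CD34 positive, 12.39 and 12.70 in CD34 negative and 11.81 and 11.86 in Mts24 negative cells. The CD34 fractions overlapped and the Mts24 fractions lay on either side of them. The Mts24 difference was 1.34 in wild type and 1.48 in K14Snail.

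Atp6v1c2 encodes a tissue-restricted C subunit of the V1 part of the vacuolar proton pump. It had the smallest Mts24 difference of the group, 0.52 in wild type and 0.91 in K14Snail. Levels were 10.05 and 10.67 in Mts24 positive, 9.53 and 9.76 in Mts24 negative, 9.08 and 9.56 in CD34 negative and 9.20 and 9.30 in CD34 positive cells. Apart from Mts24 positive cells, neighbouring fractions overlapped.

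The structural and matrix genes were Nebl and Abi3bp. Nebl encodes nebulette, an actin-binding protein best known from the heart muscle Z-disc, and stood at 11.39 and 11.61 in Mts24 positive, 10.40 and 11.26 in CD34 positive, 10.33 and 10.44 in Mts24 negative and 10.18 and 10.56 in CD34 negative cells. Below the Mts24 positive arrays the other 3 fractions overlapped. Abi3bp encodes a secreted matrix protein. It was at 11.30 and 10.48 in Mts24 positive, 9.34 and 9.55 in CD34 positive, 9.48 and 9.17 in CD34 negative and 7.72 and 8.27 in Mts24 negative cells, with an Mts24 difference of 3.58 in wild type and 2.21 in K14Snail. Abi3bp and, by little, Vsnl1 were the members with the larger Mts24 difference in wild type.

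Mab21l4, a Mab21-like gene linked to squamous differentiation, had another pattern. Mts24 positive cells held 10.06 and 10.36, CD34 negative cells 10.22 and 9.69, Mts24 negative cells 9.43 and 8.87, and CD34 positive cells 8.04 and 8.19. It was the only member with its lowest level in CD34 positive cells apart from all other fractions, and its Mts24 positive and CD34 negative arrays overlapped.

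In the 2 negative fractions the members also differed. Both CD34 negative arrays lay above both Mts24 negative arrays for 8 of the 10, all but Atp6v1c2 and Nebl, against 35.3% of tested genes. The Mts24 negative arrays belong to the sort that chose the members, so nothing is read from this count. For Plet1 the gap between the negative fractions was 1.24 in wild type and 2.06 in K14Snail, and for Calhm5 it was 1.82 and 2.90.

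The CD34 sort was compared to ask where the members stand in bulge cells. Vsnl1 and Calhm5 rose in CD34 positive cells and Mab21l4 fell, while the other 7 did not pass. Among all tested genes 26.8% passed in either direction (13.4% higher and 13.4% lower), so 3 of 10 is near the background. At an unadjusted p under 0.05 there were 5 of 10 members, where 39.1% of tested genes reached that level. The members' median difference was 0.07, beside -0.03 over all tested genes. These are limma tests over 2 pairs of arrays, 1 per genotype, with the spread shared over all 8 arrays and p-values adjusted by Benjamini-Hochberg. That spread takes in the Mts24 positive arrays the members were chosen on, so the members' p-values are not fully free of that choice. The same holds for the members' genotype tests given below, also where positive and negative cells are set apart. With the CD34 arrays alone the calls of Vsnl1 and Mab21l4 were kept. As no group has a second pool, the spread behind the p-values is how unevenly the genotypes differ across the fractions. Noise and a genotype difference that truly varies between fractions cannot be told apart in it.

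Vsnl1 had the smallest adjusted p of the members, with a difference of 1.35 ± 0.13 (limma SE; 2.54-fold, adjusted p = 0.00133), made up of 1.17 in wild type and 1.52 in K14Snail. Calhm5 rose by 1.75 ± 0.33 (3.35-fold, limma adjusted p = 0.0131), with 2.35 in wild type and 1.14 in K14Snail. Its call was lost with the 4 CD34 arrays alone (adjusted p = 0.0704) and without the wild type CD34 negative array (1.34, adjusted p = 0.0811). Mab21l4 fell by 1.84 ± 0.24 (3.57-fold, limma adjusted p = 0.00408), with -2.18 in wild type and -1.49 in K14Snail, so it was lower in CD34 positive cells but higher in Mts24 positive cells in both genotypes.

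Plet1 was at 0.59 ± 0.20 and did not pass (limma adjusted p = 0.0783, 95% interval 0.10 to 1.08 before adjustment). Without either Mts24 negative array it passed with the same size (adjusted p = 0.0257). Nebl stood at 0.47 ± 0.19 (adjusted p = 0.123) and passed without the wild type CD34 positive array (0.78, adjusted p = 0.0133). Slco2b1 stood at -0.26 ± 0.27 (adjusted p = 0.543) and passed without the K14Snail CD34 positive array (-0.75, adjusted p = 0.0298). Cst6 (-0.18 ± 0.10, 95% interval -0.43 to 0.08), Abi3bp (0.12 ± 0.32), Atp6v1c2 (-0.06 ± 0.14) and Aadac (0.02 ± 0.36, interval -0.85 to 0.90) had adjusted p-values of 0.276 or more with limma. For 4 members the genotypes pointed in opposite directions (wild type first): Aadac with -0.66 and 0.71, Slco2b1 with -0.75 and 0.22, Atp6v1c2 with 0.13 and -0.26, and Abi3bp with -0.14 and 0.38.

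**Figure D2:**
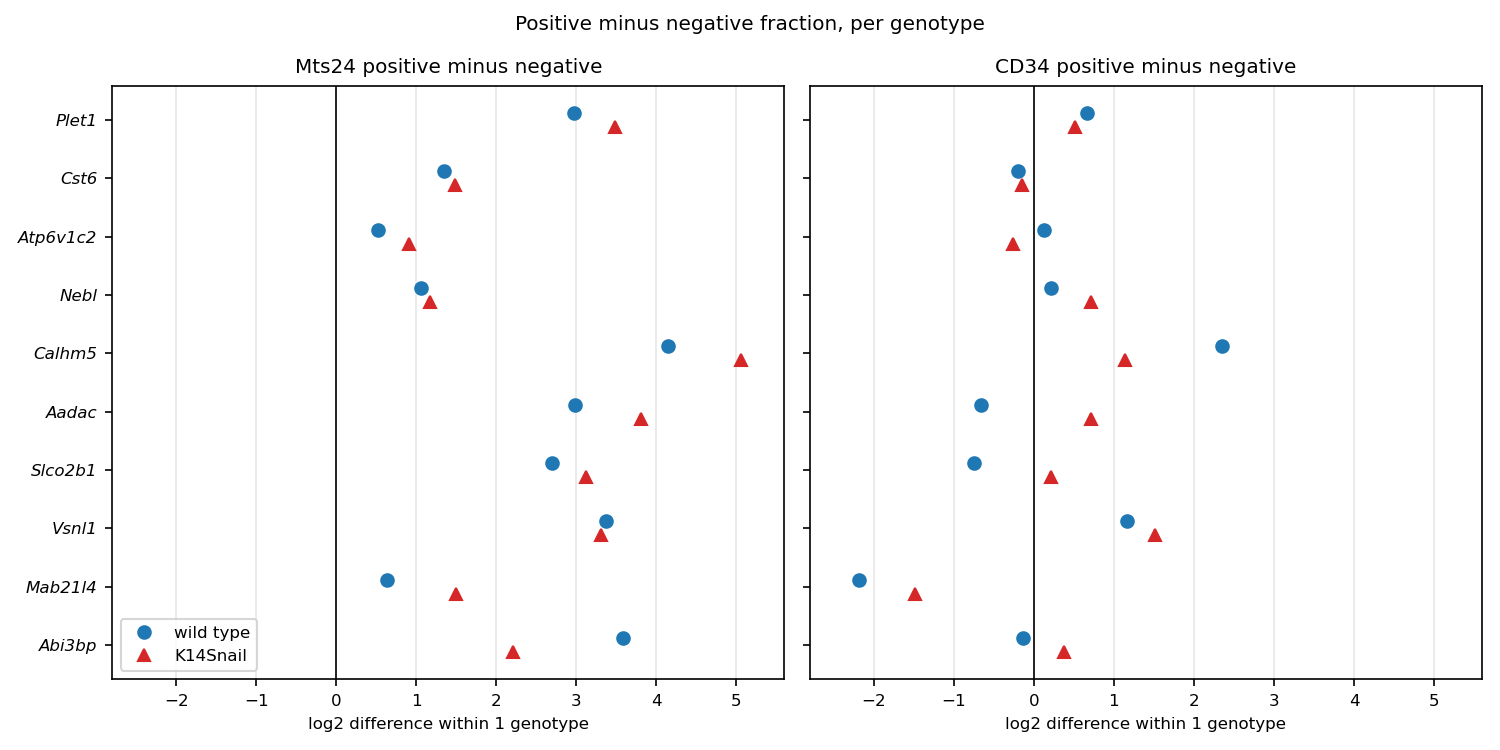
Difference between positive and negative cells (log2, horizontal axis) for the Mts24 sort on the left and the CD34 sort on the right, with 1 blue circle for the wild type pair and 1 red triangle for the K14Snail pair of each gene. In the Mts24 sort all points are above 0, from 0.52 to 5.06; in the CD34 sort Calhm5 and Vsnl1 lie above 0 and Mab21l4 lies at -2.18 and -1.49.

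Other known upper follicle markers were compared in the same sorts. This list of 18 genes was taken from knowledge of the tissue with earlier results of these data known, and 15 of its genes were tested. In Mts24 positive cells 11 of 15 rose, 0 fell and 4 did not pass (median 2.04 beside 0.02 over all tested genes, where 12.8% rose). The transcription factor Gata6, known from the upper follicle and sebaceous duct, rose by 3.81 ± 0.23 (limma adjusted p = 0.00108). The activin inhibitor Fst rose by 3.29 ± 0.13 (adjusted p = 0.000437) and the kallikrein Klk10 by 2.94 ± 0.19 (adjusted p = 0.00117). In CD34 positive cells 3 of 15 rose and 0 fell, where 13.4% of tested genes rose. They were the companion layer keratin Krt75 (4.46 ± 0.22, adjusted p = 0.000240), Fst (2.26 ± 0.13, adjusted p = 0.000313) and the Wnt and BMP inhibitor Sostdc1 (0.79 ± 0.16, adjusted p = 0.0178). Krt75 was brighter in CD34 positive cells (12.41 and 11.66) than in Mts24 positive cells (11.63 and 11.03). As a companion layer keratin it is a doubtful upper follicle marker, though it enters the counts of this list. Fst was about as bright in CD34 positive cells (11.82 and 12.22) as in Mts24 positive cells (11.96 and 11.93). Of the 8 fits that each leave out 1 array, the Sostdc1 call was lost in 3 (adjusted p up to 0.104), and those of Krt75 and Fst in 0. Of the bulge markers 15 of 18 tested genes rose in CD34 positive cells, with 1 lower. In Mts24 positive cells 12 of 18 rose, with 0 lower. Their median was 2.73 in the CD34 sort and 1.34 in the Mts24 sort, beside the members' 0.07 and 2.90. The members' 2.90 comes from the arrays they were chosen on. The bulge list holds Cd34, the gene of the antigen used in the CD34 sort. Nothing is therefore read from setting these medians side by side. Whether these shifts differ between the lists was not tested.

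Genes with a profile like that of Plet1 were ranked by the root mean square difference between profiles over the 8 arrays, each centred on its own mean. The 8 arrays include the Mts24 positive ones the members were chosen on, so a member's rank is partly fixed by that choice and is a description. Over 10719 genes the median distance was 1.19 log2 units. Vsnl1 ranked 1 (0.378), Abi3bp 9 (0.469), Aadac 27 (0.592) and Slco2b1 38 (0.614). Calhm5 ranked 109 (0.750), Cst6 127 (0.772) and Nebl 331 (0.892), while Atp6v1c2 (rank 2531, 1.11) and Mab21l4 (rank 7709, 1.27) did not follow Plet1 closely. Outside the group the nearest genes were Sostdc1 (0.388), the forkhead factor Foxc1 (0.390), the secreted and membrane protein gene Sectm1b (0.399), the Rap1 exchange factor gene Rapgef5 (0.405) and Gata6 (0.408), at ranks 2 to 6. The first of them, Sostdc1, stood at 13.04 and 13.00 in Mts24 positive, 12.59 and 12.88 in CD34 positive, 11.95 and 11.94 in CD34 negative and 10.99 and 10.59 in Mts24 negative cells, the fraction order of Plet1. Gata6 was at 11.91 and 11.77 in Mts24 positive and at 7.98 and 8.10 in Mts24 negative cells. Over the 8 arrays, which share sorts and may share pools, Pearson's r between pairs of members ranged from 0.02 to 0.99 with a median of 0.79 over 45 pairs. The choice of members on the Mts24 positive arrays partly fixes these correlations too. They were not computed for pairs of other genes, so nothing is read from their size.

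**Figure D3:**
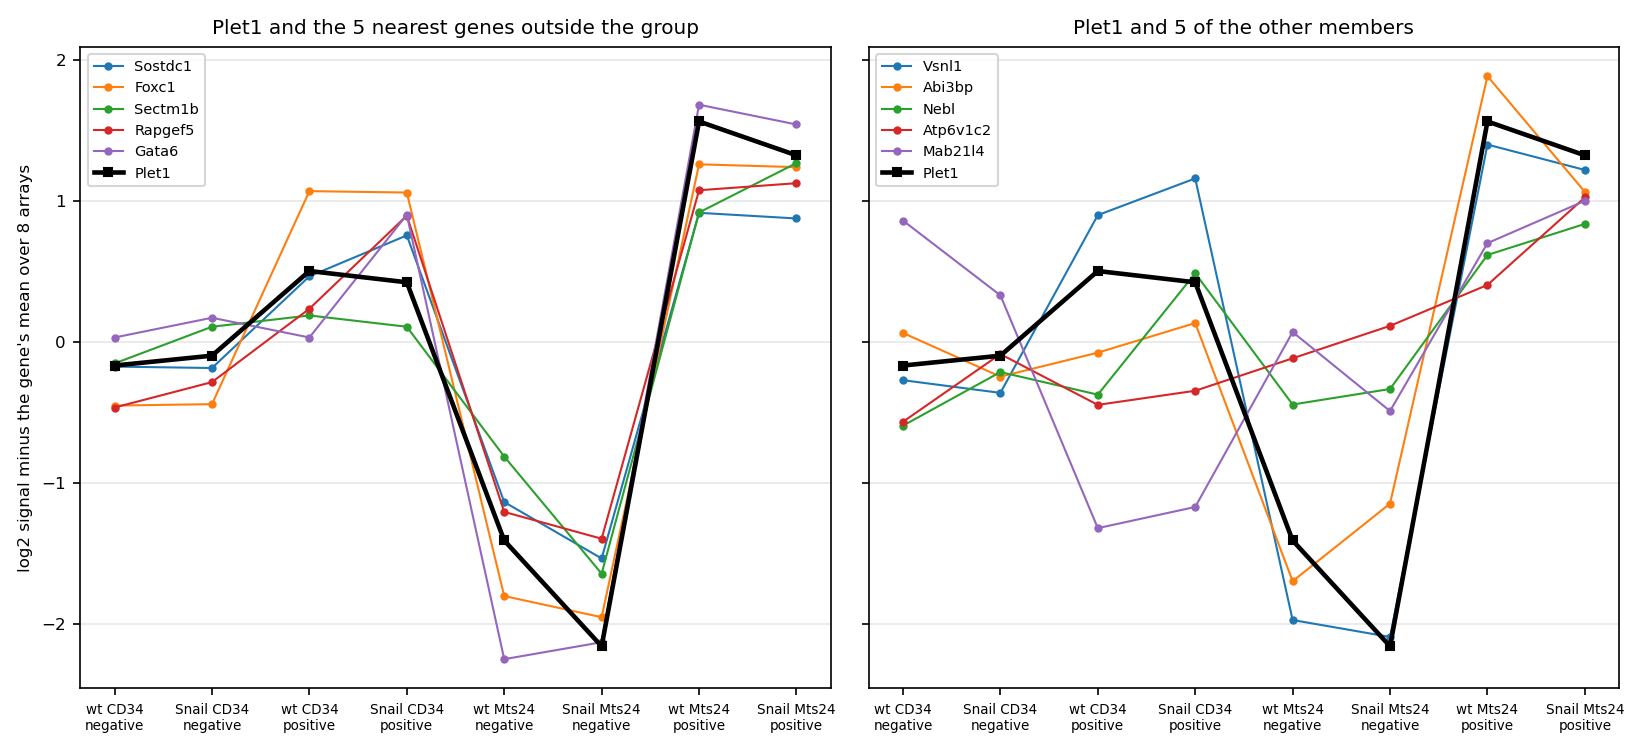
Log2 signal minus the gene's own mean (vertical axis) on each of the 8 arrays for Plet1 (thick black line) and, on the left, the 5 nearest genes outside the group or, on the right, 5 of the other members; wt is wild type, Snail is K14Snail, and lines only join the points of a gene. The genes on the left dip with Plet1 in Mts24 negative cells, whereas on the right Mab21l4 is lowest in CD34 positive cells and Nebl and Atp6v1c2 stay within a narrower range than Plet1.

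Relatives of the members were examined in the Mts24 sort, where 12.8% of all tested genes rose and 13.5% fell. Each Mts24 count of relatives is to be read beside these shares. Of the other subunits of the vacuolar proton pump 19 were tested: 0 rose, 4 fell and 15 did not pass (median -0.24). The ones that fell most were the membrane subunits Atp6v0a1 (-1.02 ± 0.08, limma adjusted p = 0.00193), Atp6v0d1 (-0.43 ± 0.09, adjusted p = 0.0227) and Atp6v0a2 (-0.39 ± 0.10, adjusted p = 0.0414). The ubiquitous C subunit Atp6v1c1 was at -0.36 ± 0.13 (adjusted p = 0.103), beside 0.72 for Atp6v1c2. Of the 8 fits that each leave out 1 array, the Atp6v0a1 call was lost in 0. The Atp6v0d1 call was lost without any single Mts24 array (adjusted p up to 0.141). The Atp6v0a2 call was lost in 6 of the 8 (adjusted p up to 0.201), with the pool as a random block (0.0563), with no filter (0.0612) and with averaged probe sets (-0.20, adjusted p = 0.122).

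Among the proteases that cystatin M inhibits and their substrate enzymes, 1 of 7 rose in Mts24 positive cells, where 12.8% of all tested genes did. It was the cathepsin gene Ctsb (0.60 ± 0.08, limma adjusted p = 0.00580). That call was lost without the K14Snail Mts24 negative array (adjusted p = 0.0570). Legumain (Lgmn) stood at 0.28 ± 0.12 (adjusted p = 0.134) and cathepsin L (Ctsl) at -0.07 ± 0.15 (adjusted p = 0.752). In CD34 positive cells Lgmn rose by 0.61 ± 0.12 (adjusted p = 0.0147), the transglutaminase Tgm3 fell by 1.24 ± 0.30 (adjusted p = 0.0310) and the cathepsin gene Ctsh fell by 0.58 ± 0.12 (adjusted p = 0.0188). With the 4 CD34 arrays alone none of these 3 calls held (adjusted p = 0.0982 for Lgmn, 0.117 for Tgm3 and 0.0727 for Ctsh), and each was also lost in 2 to 4 of the 8 fits without 1 array. Of 6 tested cystatins and stefins, Stfa3 (1.69 ± 0.42, limma adjusted p = 0.0350) and Cstb (0.72 ± 0.12, adjusted p = 0.0120) rose in Mts24 positive cells and Cst7, a cystatin of lymphoid and myeloid cells, fell by 1.88 ± 0.16 (adjusted p = 0.00196). The Cst7 call was lost in 0 of the 8 fits without 1 array, that of Cstb in 3 (adjusted p up to 0.0938) and that of Stfa3 in 5 (adjusted p up to 0.190). Without the K14Snail Mts24 positive array Stfa3 was at 1.02 (adjusted p = 0.137). Probes of Stfa genes can share signal with close copies.

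Of the organic anion transporters 11 of 14 relatives on the array did not reach the filter. Slco2a1, a prostaglandin transporter, rose by 0.97 ± 0.11 in Mts24 positive cells (limma adjusted p = 0.00360), while Slco3a1 (-1.20 ± 0.10, adjusted p = 0.00185) and Slco4a1 (-0.48 ± 0.11, adjusted p = 0.0279) fell. The Slco4a1 call was lost in 5 of the 8 fits without 1 array (adjusted p up to 0.188), the other calls in 0. Both tested relatives of Aadac fell, Aadacl2 (-2.45 ± 0.56, limma adjusted p = 0.0281) and the cholesterol ester hydrolase gene Nceh1 (-1.25 ± 0.32, adjusted p = 0.0400). The Aadacl2 call was lost without any single Mts24 array (adjusted p up to 0.169). The Nceh1 call was lost with the pool as a random block (adjusted p = 0.0518) and in 3 of the 8 fits without 1 array, with -0.69 without the wild type Mts24 positive array. Of 5 tested neuronal calcium sensors 2 rose, where 12.8% of all tested genes did: Hpcal1 (0.81 ± 0.14, limma adjusted p = 0.0127) and Guca1a (0.55 ± 0.14, adjusted p = 0.0367). Calhm2, the only other Calhm gene past the filter, was at 0.27 ± 0.09 (adjusted p = 0.0733). In the nebulin family Lasp1, an actin-binding adaptor, rose by 0.73 ± 0.15 (adjusted p = 0.0224), and of the Mab21 family Mb21d2 fell by 0.77 ± 0.12 (adjusted p = 0.00918). The calls of Hpcal1, Guca1a and Lasp1 were lost without any single Mts24 array (adjusted p up to 0.0894, 0.175 and 0.138), and that of Mb21d2 in 2 of the 8 fits (adjusted p up to 0.0764).

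The genotypes were compared over the 4 fractions to ask whether the members differ with the transgene. With limma 0 of 10 passed, and 41 of 10720 tested genes did (0.382%). At an unadjusted p under 0.05 there were 4 members, Atp6v1c2, Cst6, Nebl and Slco2b1, where 20.3% of tested genes reached that level. With a random block for the 2 fractions of a sort and genotype 0 members passed as well. The labels do not say whether these fractions share mice. If they do, the 4 fractions of a genotype hold 2 pools, and the fit without the block counts them as separate. The members' median was 0.10, beside 0.02 over all tested genes.

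For Cst6, K14Snail minus wild type was 0.31 and 0.36 (CD34 negative, then positive) and 0.05 and 0.18 (Mts24 negative, then positive), with an estimate of 0.23 ± 0.07 (limma adjusted p = 0.192). Atp6v1c2 had 0.48, 0.10, 0.23 and 0.62 in the same order, with 0.36 ± 0.10 (adjusted p = 0.163). Nebl had 0.38, 0.86, 0.11 and 0.22, with 0.39 ± 0.13 (adjusted p = 0.197). Together with Aadac and Slco2b1 these genes were higher in K14Snail in 4 of 4 fractions, which held for 5 of 10 members and for 18.9% of tested genes; 0 members were lower in all 4, against 12.6%.

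Aadac and Slco2b1 differed most in CD34 positive cells. Aadac was higher in K14Snail by 1.44 there and by 0.84 in Mts24 positive cells, but by 0.08 and 0.01 in the CD34 and Mts24 negative cells (estimate 0.59 ± 0.25, limma adjusted p = 0.259). Slco2b1 was higher by 1.29 and 0.53 in the CD34 and Mts24 positive cells and by 0.32 and 0.10 in the CD34 and Mts24 negative cells (0.56 ± 0.19, adjusted p = 0.204). They were the 2 members past a log2 difference of 1 in the CD34 positive pair, where 4.94% of tested genes were past it in either direction; in the other 3 pairs 0 members were, against 0.858% (CD34 negative), 0.737% (Mts24 negative) and 1.91% (Mts24 positive) of tested genes. A single pair has 1 array per group and no test. In the CD34 positive pair other markers moved too: the averaged level of 15 sebaceous gland genes was 10.19 in wild type and 8.64 in K14Snail, and that of 12 suprabasal genes 11.68 and 10.60. The averaged level of 16 other upper follicle markers was 10.58 and 11.02, and that of the myeloid genes 7.30 and 8.47. The average of 19 bulge genes was 11.72 and 11.36, and that of 8 melanocyte genes 7.38 and 7.94. The sebaceous average was also lower in K14Snail in the Mts24 negative (9.71 and 9.24) and Mts24 positive pairs (9.5 and 9.42). In the CD34 negative pair it was lower too (10.06 and 8.8). Aadac and Slco2b1 differed by 0.08 and 0.32 in that pair. The suprabasal average (11.87 in wild type) was not lower in K14Snail there. The upper follicle average was 10.17 and 10.28 in that pair, and the myeloid average 8.85 and 8.48. The part of these marker lists in the differences of Aadac and Slco2b1 was not tested.

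Plet1 differed by 0.07 and -0.08 in the CD34 negative and positive cells and by -0.75 and -0.24 in the Mts24 negative and positive cells (-0.25 ± 0.14, limma adjusted p = 0.350, 95% interval -0.59 to 0.10). Vsnl1 (-0.03 ± 0.09), Calhm5 (-0.02 ± 0.23), Abi3bp (-0.09 ± 0.22) and Mab21l4 (-0.16 ± 0.17) had adjusted p-values of 0.604 or more with limma. Their single differences had mixed signs: Calhm5 ran from -0.62 in CD34 positive to 0.60 in CD34 negative cells, and Abi3bp from -0.82 in Mts24 positive to 0.55 in Mts24 negative cells. Vsnl1 had the narrowest spread of these, from -0.18 to 0.26.

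**Figure D4:**
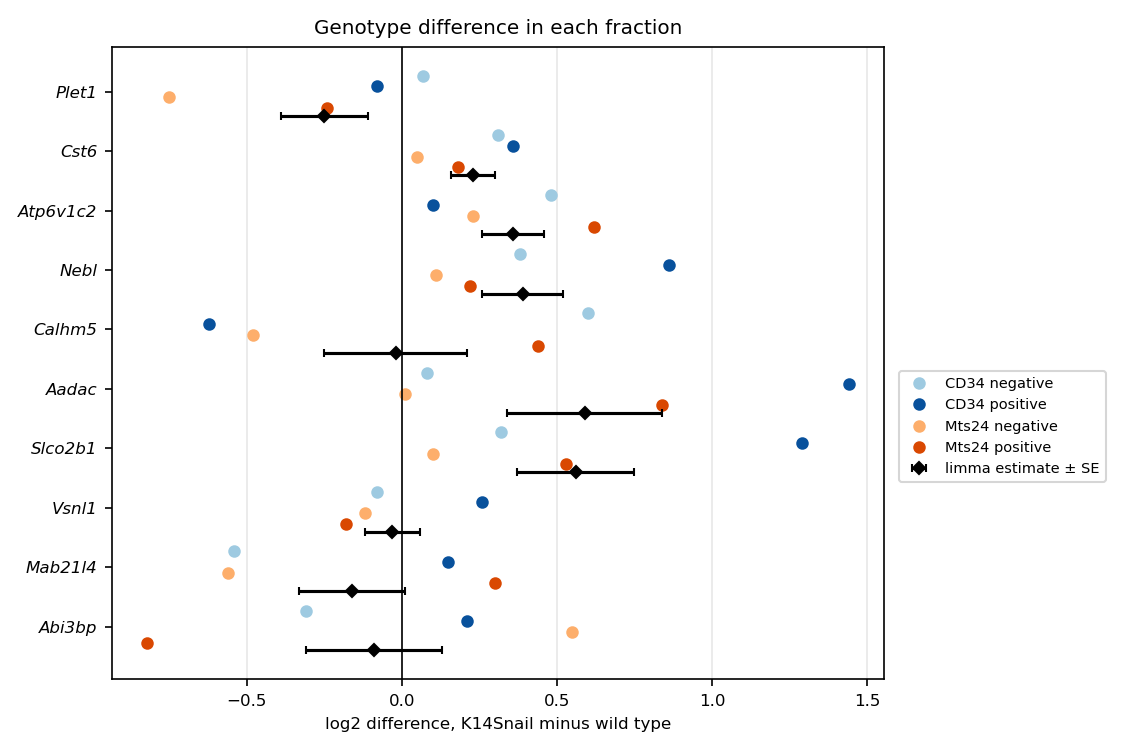
K14Snail minus wild type (log2, horizontal axis) for each of the 10 genes, with 1 dot per fraction (blue shades for the CD34 sort, orange shades for the Mts24 sort) and the limma estimate over the 4 fractions as a black diamond with its SE. Aadac reaches 1.44 and Slco2b1 1.29 in CD34 positive cells, and Plet1 reaches -0.75 in Mts24 negative cells.

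The last comparison asked whether the genotype difference was another in positive than in negative cells. With limma 0 members passed, and 0 of 10720 genes did (0%). At an unadjusted p under 0.05 there were 3 members, Aadac (1.10 ± 0.22, limma adjusted p = 0.227), Mab21l4 (0.77 ± 0.12, adjusted p = 0.173) and Slco2b1 (0.70 ± 0.27, adjusted p = 0.503), where 9.89% of tested genes reached that level. Mab21l4 was lower in K14Snail in both negative fractions (-0.54 and -0.56) and higher in both positive fractions (0.15 and 0.30). Without either Mts24 positive array these 3 genes passed, with 1.40 for Aadac (adjusted p = 0.00340), 0.70 for Mab21l4 (adjusted p = 0.0416) and 1.08 for Slco2b1 (adjusted p = 0.0121), in fits with 1 residual degree of freedom where positive cells are compared in the CD34 sort alone. In those fits 728 of 10720 tested genes passed (6.79%).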

How the data were processed

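Back-skin keratinocytes were measured on Affymetrix arrays, and the values used are the deposited log2 signals of probe sets. RMA is named in the submitters' processing notes, with version and genome build not given in the sources used here. Their range fits a log2 scale (3.04 to 14.49; array medians 7.32 to 7.42). Of 28874 probe sets 21789 carry 1 gene symbol in the platform annotation, 1621 several and 5464 none. Those with a single symbol were used, and for 999 genes with several such probe sets the one with the highest mean. Genes reaching 7.70, the median over all values of named genes, on at least 2 arrays were tested (10720). Models (limma 3.58.1, R 4.3.3, fraction and genotype as terms, 3 residual degrees of freedom; 2 with the interaction) had no pool block: with so few degrees of freedom an estimated pool correlation also takes up any genotype by fraction interaction. The blocked fit is an alternative, and its estimated correlation was -0.175. Tests are two-sided, adjusted by Benjamini-Hochberg at 0.05, and the scripts were tested on simulated data. Levels of different probe sets were not compared.

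The members and all gene lists were chosen with earlier results of these data known. Genes were named by rule: all members, at most 3 called genes with the largest difference per list and comparison, marker checks, and the 5 genes nearest Plet1. Atp6v1c1, Lgmn, Ctsl and Calhm2 in the Mts24 sort were named after their values were seen. Lists not described in the report are given here for the Mts24 sort, as called higher and lower of those tested: sebaceous gland 1 and 3 of 14, suprabasal 1 and 0 of 12, basal epidermis 2 and 0 of 10, fibroblast 2 and 1 of 7, melanocyte 1 and 4 of 6, muscle 0 and 0 of 3, T cell 0 and 6 of 6, myeloid 0 and 3 of 11. Thy1 is on both the fibroblast and the T cell list.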

Additional observations from a re-analysis of the deposited data

Results flagged for a closer look

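Mab21l4 had a genotype difference of opposite sign in positive and negative fractions, in every pair of arrays; the interaction estimate was 0.77 and did not pass (limma adjusted p = 0.173). Mab21l4 was also lower in CD34 positive than in CD34 negative cells in both genotypes (-1.84) while it was higher in Mts24 positive cells in both. Cst6 had the same opposition with a small CD34 difference (-0.18) that did not pass. The Mts24 side of this opposition was fixed by the choice of members, and the difference between the sorts was not tested. A second probe set of Nebl, which the comparisons did not use, was also higher in Mts24 positive cells, by 0.84 on average, from 6.88 to 7.30 in wild type and from 6.73 to 7.99 in K14Snail, with most of its arrays under the filter level.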

How the results depend on the processing

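In CD34 tests of members the calls of Vsnl1 and Mab21l4 were kept in all fits run. The count of members past the threshold stayed at 0 for genotype under the alternatives run: the pool block, 2 normalizations, 2 filters, 2 priors, averaged probe sets and each array left out. For CD34 it was 2 to 4 without 1 array, and for the interaction 0 to 3. Counts over all genes moved more. The genotype count of 41 became 220 with the pool as a random block, 63 with no filter on dim genes, and 2 to 23 without 1 array. The CD34 count of 2868 was 1422 with the CD34 arrays alone and 1332 to 2531 without 1 array. The Mts24 count over genes that are no members was 776 to 3188 without 1 array. The interaction count of 0 became 1 with no filter on dim genes, 3 with an intensity trend in the prior and 0 to 728 without 1 array. With 1 array left out, small differences changed sign: for genotype Calhm5 ran from -0.22 to 0.18, Vsnl1 from -0.13 to 0.02 and Abi3bp from -0.31 to 0.15. For CD34 Atp6v1c2 ran from -0.24 to 0.11, Aadac from -0.54 to 0.59, Slco2b1 from -0.75 to 0.22 and Abi3bp from -0.08 to 0.32. Aadac was at -0.04 for CD34 with arrays centred on their median. Without 1 array the fits rest on fewer samples, and otherwise the cause was not tested. As each fraction has 1 array per genotype, leaving out either one gave the same spread and the same genotype and interaction estimates. Counts out of the 8 such fits are therefore not counts of separate checks. With all 8 arrays required over 7.70, Calhm5 and Slco2b1 were not tested. The interaction with the pool block reused the correlation of the model without it. The 2 fractions of a sort and genotype have the same pool size, but the labels do not say that they share mice. A fit with the 4 pools as a fixed block, chosen after seeing the data, kept 3 members past the threshold for CD34 and 0 for the interaction. It ended the calls of Tgm3 and Atp6v0a2 in the CD34 sort (adjusted p = 0.0546 and 0.0612). In the Mts24 sort it ended those of Atp6v0a2, Guca1a, Nceh1, Slco4a1 and Stfa3 (0.0542, 0.0716, 0.0532, 0.0561 and 0.0527).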
